A study of Mus musculus with 6 samples.

Results

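Of the 26852 genes in the deposited table, 8 were taken as genes of midbrain motor, red nucleus, cholinergic and noradrenergic neurons. They are Isl1, Isl2 and Phox2a (oculomotor regulators), Pou4f1 (red nucleus regulator), Chat, Slc18a3 and Slc5a7 (acetylcholine synthesis and transport) and Dbh (noradrenaline synthesis). They were listed by name, with earlier results of these data known, and all 8 are in the table. RNA of midbrains dissected from C57Bl/6 mouse embryos at E14.5 was sequenced as 3 libraries of Lmx1b fl/fl;Pitx3-Cre embryos (Lmx1b cKO) and 3 libraries of Lmx1b wt/wt;Pitx3-Cre embryos (control), each from pooled embryos. Both groups carry the Cre, which is expressed from the Pitx3 locus and therefore acts in Pitx3 positive dopaminergic neurons, and the floxed Lmx1b alleles are in the cKO group only. The comparison asks whether genes of neighbouring midbrain neurons differ after Lmx1b is removed from Pitx3 positive neurons.

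The oculomotor nucleus lies in the ventral midbrain close to the red nucleus and the dopaminergic neurons. Its motor neurons depend on the homeodomain factor Phox2a and express Isl1, and they release acetylcholine. Neurons of the red nucleus express the POU factor Pou4f1 (Brn3a), while noradrenergic neurons depend on Phox2a and make noradrenaline from dopamine with Dbh. In dissected midbrain, fewer cells of a type and less RNA per cell cannot be told apart.

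The deposited values are mean normalized counts per group, that is read counts divided by the size factor of their library. Because reads are whole numbers, the 3 counts behind each mean were recovered for 26348 genes (98.1%), the 8 genes and Lmx1b included, with 20566011 to 24974510 recovered reads per library. A recovered library is known by its genotype alone, and the 3 of each group are called a, b and c in falling order of size factor. Lmx1b (ENSMUSG00000038765), the targeted gene, had normalized counts of 1371 ± 102 in cKO and 1398 ± 66.6 in control libraries (SD, n = 3), a log2 fold change of -0.03 ± 0.07 (SE, adjusted p = 1.00, limma). Its total level therefore does not check the group labels. Over the 16673 genes whose mean normalized count reached 10, limma called 0 genes (0.0%) at an adjusted p under 0.05 and 466 (2.79%) at an unadjusted p under 0.05. In 1279 genes (7.67%) the 3 cKO and 3 control libraries did not overlap. The cKO library c stood apart in bone and mesenchyme genes, whose summed normalized count was 13201 there and 378 to 1816 in the other 5 libraries.

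Upstream DNA of Dbh is shown because Dbh and the homeodomain gene Phox2a were high in the same libraries (below). In RefSeq (GRCm38.p6), the 250 bases before the Dbh start hold 3 copies of ATTA, the core bound by homeodomain factors such as Phox2a, which begin 157, 147 and 65 bases before the start. The pair and the single copy lie in the following stretches of 30 bases, at chr2:27165342-27165371 and chr2:27165430-27165459 on the plus strand, with ATTA in capitals. In GENCODE both fall within an exon of a longer Dbh transcript.

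Dbh upstream pair: catgtgtcATTAgtgccaATTAggggagat

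Dbh upstream single: cagacaaatgtgATTAggtgcagcctggcc

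The DNA directly before the start of Slc18a3 is shown because this gene lies inside an intron of Chat on the same strand, with a start of its own, and was measured at a higher level per length than Chat. The 191 bases at chr14:32464851-32465041 (minus strand) are free of annotated exons and hold 1 copy of ATTA, again in capitals.

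Slc18a3 upstream: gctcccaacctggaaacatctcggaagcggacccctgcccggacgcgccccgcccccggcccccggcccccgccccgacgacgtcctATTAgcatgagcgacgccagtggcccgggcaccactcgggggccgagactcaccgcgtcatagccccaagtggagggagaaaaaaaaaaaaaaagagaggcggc

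Counted on both strands, ATTA occurs in 54.9% of the 32851 RefSeq promoters in such a window, and 17.3% of promoters hold at least 3 copies as Dbh does. Isl1 has 2 copies and the other 5 genes have none. The longer sequence TAATTA, which contains ATTA on each strand and is found in 4.84% of promoters, is in none of the 8 windows. The E-box CAGCTG, a motif of basic helix-loop-helix factors found in 13.0% of promoters, occurs once each at Isl1, Pou4f1 and Chat. The cyclic AMP response element TGACGTCA (1.55% of promoters) occurs at Isl2, where its 7-base core TGACGTC, counted again within it, matches 2 times, and this core (2.78% of promoters) also occurs once at Isl1. The windows of Pou4f1, Isl1 and Phox2a were rich in G and C (78.0%, 71.2% and 70.4%), that of Slc5a7 was not (45.6%), and the median of all promoters was 52.4%. These letter matches describe the DNA and do not show binding.

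For none of the 8 genes was a difference between Lmx1b cKO and control detected beyond the spread of the libraries. Of the 8, 6 passed the minimum mean of 10, and 0 of these 6 were called in either direction at an adjusted p or at an unadjusted p under 0.05, against 1.18% of all tested genes that were higher and 1.61% that were lower in the cKO at the unadjusted threshold. Isl2 and Phox2a, with means of 8.02 and 4.79, were too low to be tested. The libraries of the groups overlapped in all 8 genes. With 3 libraries against 3, an exact permutation test cannot give a two-sided p below 0.1, and it gave 0.4 to 1.0 for the 8 genes.

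**Figure D1:**
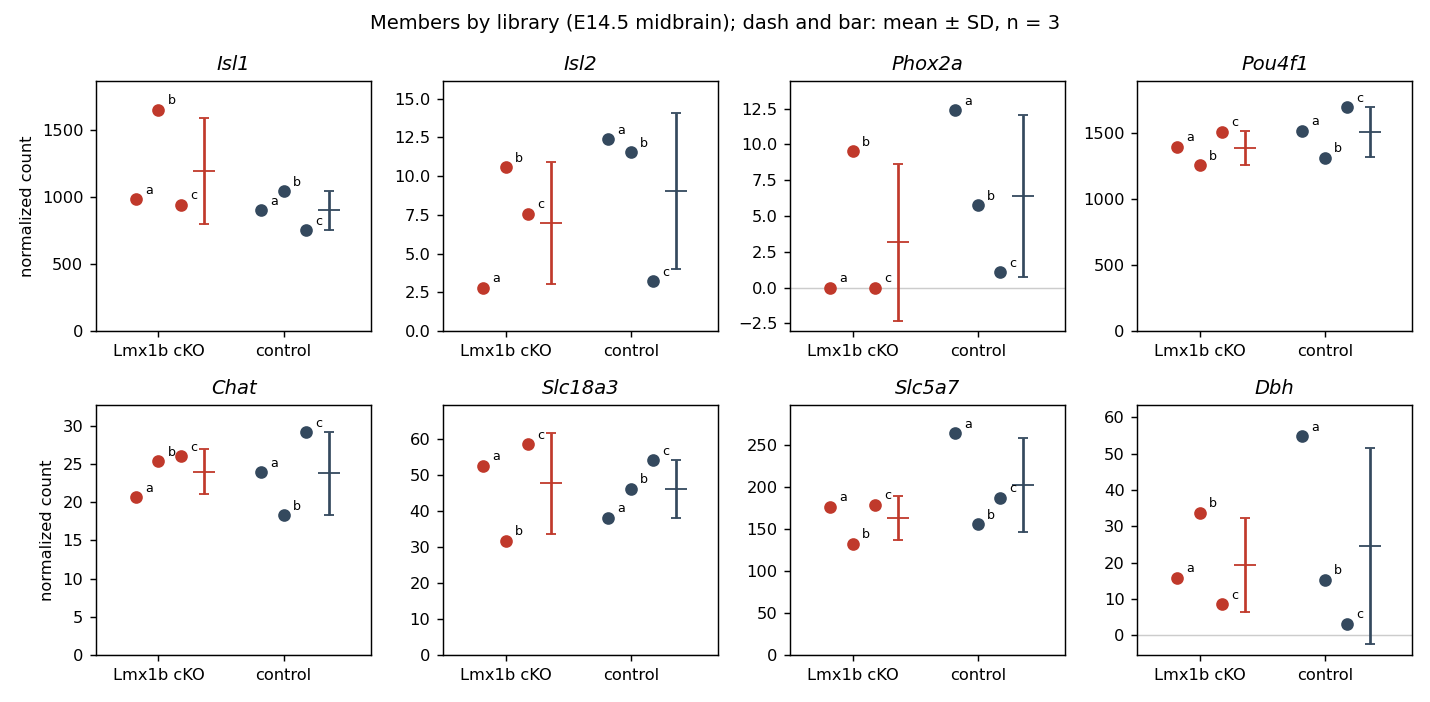
Normalized count (y axis, linear) of the 8 genes in the 3 Lmx1b cKO and 3 control libraries, each point 1 library with its letter, and the mean ± SD of each group (n = 3). In every panel the points of the groups overlap, and Dbh and Phox2a spread most, with Dbh between 3.24 and 54.9.

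The level per length of exon, the only scale on which these genes can be ranked, placed 2 genes far above the rest. Pou4f1 had a mean of 310.1 normalized counts per kb (269 to 363 over the 6 libraries) and Isl1 264 (191 to 417), and their ranges overlap. Slc5a7 followed at 32.3 (23.4 to 46.7) and Slc18a3 at 19.4 (13.1 to 24.2), again with overlapping ranges. Dbh at 8.16 (1.20 to 20.4), Chat at 5.08 (3.88 to 6.20), Isl2 at 3.66 (1.28 to 5.65) and Phox2a at 2.35 (0 to 6.09) could not be separated from their neighbours in this order. Among 26199 genes with a read, the level per kb of Pou4f1 and Isl1 was above 79.8% and 77.1% of genes, that of Slc5a7 above 50.4%, that of Slc18a3 above 45.9% and those of the other 4 above 26.4% to 38.1%. Phox2a and Chat were thus among the least abundant of the 8, while the cholinergic genes Slc5a7 and Slc18a3 came directly after Pou4f1 and Isl1. The abundant Isl1 and Pou4f1 are also known from other midbrain and sensory neurons, and Phox2a from noradrenergic neurons. Apart from Isl1, the name oculomotor therefore rests on few reads in this tissue, those of Isl2 and Phox2a.

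**Figure D2:**
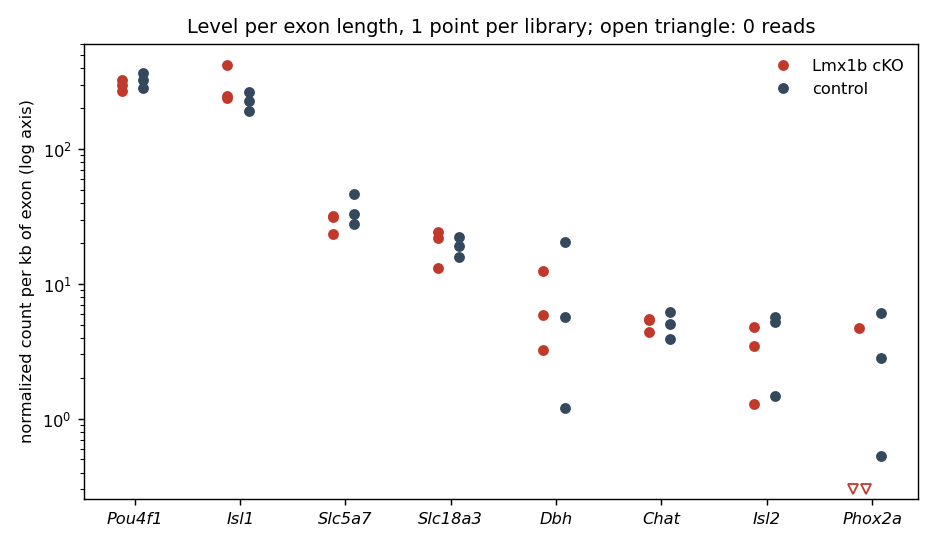
Normalized count per kb of exon (log axis) for the 8 genes in falling order, 1 point per library, with Lmx1b cKO in red and control in dark blue. Pou4f1 and Isl1 lie between 191 and 417, every other point lies at or below 46.7, and the open triangles at the lower edge are the 2 cKO libraries with 0 reads of Phox2a.

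Isl1 (ENSMUSG00000042258, chr13:116298281-116309689, minus strand, GRCm38), a LIM homeodomain factor that specifies motor neurons, had normalized counts of 984, 1650.5 and 944 in cKO libraries a, b and c and of 901, 1044 and 755 in control libraries a, b and c. Library b of the cKO was the highest, and the other 2 cKO libraries lay among the controls. The group means were 1193 ± 397 and 900.0 ± 145 (SD, n = 3), a log2 fold change of 0.36 ± 0.19 (SE, 95% interval -0.05 to 0.76, unadjusted p = 0.081, adjusted p = 1.00, limma). Without cKO library b the log2 fold change fell to 0.11. It was 0.48 without cKO library a (unadjusted p = 0.033), 0.49 without cKO library c (unadjusted p = 0.027) and 0.47 without control library b (unadjusted p = 0.047), so the unadjusted call depended on which library was left out.

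Isl2 (ENSMUSG00000032318, chr9:55538672-55546180, plus strand), the paralog of Isl1 that is active in postmitotic motor neurons, had 3, 10 and 7 reads in the cKO and 14, 12 and 3 reads in the control libraries a, b and c. Each group holds 1 library at 3 reads, and the others lie between 7 and 14. In the fit with no minimum the log2 fold change was -0.39 (95% interval -1.93 to 1.14, unadjusted p = 0.591, limma). Per kb of exon, Isl1 exceeded Isl2 in all 6 libraries, by 40.3-fold to 194-fold.

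Phox2a (ENSMUSG00000007946, chr7:101818313-101822726, plus strand), which is required for the oculomotor and trochlear nuclei, had 0, 9 and 0 reads in the cKO and 14, 6 and 1 reads in the control libraries. A count of 0 allows up to 3 reads (one-sided 95% limit, counting error only), or 2.81 and 3.25 normalized counts in cKO libraries a and c. The fit with no minimum gave a log2 fold change of -1.92 (95% interval -4.29 to 0.46, unadjusted p = 0.106, limma), which is no bound because it depends on how the zeros are treated. The groups overlap, since cKO library b lay above control libraries b and c. The last 95 bases of the Phox2a exons are shared with Inppl1 on the opposite strand, and the strand setting of the counting is not given in the sources used here, so reads there cannot be assigned with certainty.

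Pou4f1 (ENSMUSG00000048349, chr14:104461676-104467999, minus strand), which marks red nucleus neurons and is also expressed in the tectum, habenula and sensory ganglia, was the most even of the 8 genes. Pou4f1 measured 1397, 1256 and 1511 normalized counts in cKO libraries a, b and c and 1519, 1313 and 1696 in control libraries a, b and c, so the highest library was only 1.35-fold above the lowest. The lowest library was b of the cKO and the highest c of the control, with the other 4 between them. The means of 1388 ± 128 and 1509 ± 191 (SD, n = 3) gave a log2 fold change of -0.11 ± 0.10 (SE, 95% interval -0.33 to 0.10, unadjusted p = 0.268, adjusted p = 1.00, limma). That interval spans 0.798-fold to 1.07-fold. Without control library b the value was -0.21 (unadjusted p = 0.043).

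Isl1 and Pou4f1 ran in exactly opposite order over the 6 libraries, and so necessarily also within each genotype. Spearman's rho was -1 (exact permutation p = 0.003, adjusted p = 0.078 over 28 pairs of the 8 genes) and Pearson's r was -0.88 on the log2 scale (exact permutation p = 0.010, adjusted p = 0.272). Without cKO library b and control library c, the 2 libraries farthest from the median of Isl1, r was -0.96. No pair passed the threshold after adjustment. By ranks the next pairs were Isl1 with Slc5a7 (rho = -0.94, r = -0.70, and r = -0.89 without the same 2 libraries) and Pou4f1 with Slc5a7 (rho = 0.94, r = 0.66, and r = 0.74 without them), each with an exact permutation p of 0.017 for rho (adjusted p = 0.156), while that for r was 0.147 and 0.144 (adjusted p = 0.451). By the p of Pearson's r the next pair was Phox2a and Slc18a3, which had r = -0.88 and rho = -0.84 (exact permutation p = 0.028 and 0.044, adjusted p = 0.389 and 0.249). Without cKO libraries a and c, which had 0 reads of Phox2a, r was -0.85.

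**Figure D3:**
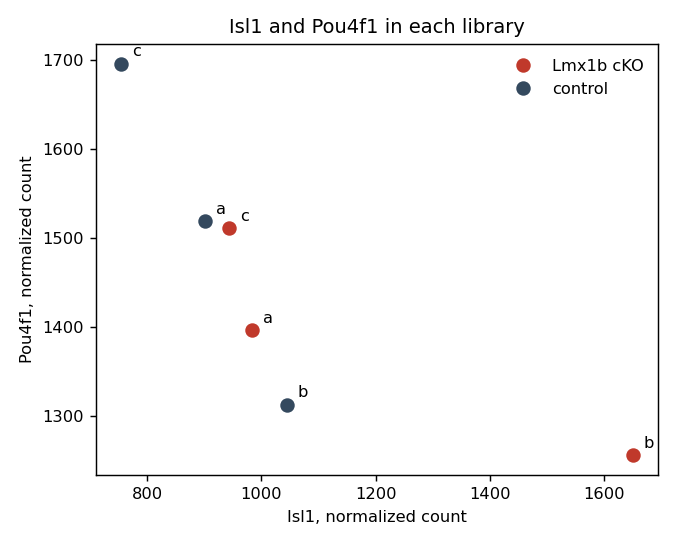
Normalized counts of Isl1 (x axis) and Pou4f1 (y axis), 1 point per library with its letter, on axes that do not start at 0. Pou4f1 falls from 1696 to 1256 as Isl1 rises from 755 to 1650.5, with cKO library b at the far right.

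None of the 3 cholinergic genes passed the test between the groups. Chat (ENSMUSG00000021919, chr14:32408203-32465989, minus strand), the enzyme that makes acetylcholine, had 22, 24 and 24 reads in the cKO and 27, 19 and 27 reads in the control libraries. Its libraries differed by no more than counting error gives, with a variance within groups of 0.798 times the counting variance. The 95% interval (exact Poisson, counting error only) ran from 11.4 to 29.7 reads for the lowest library and from 17.8 to 39.3 for the highest. The log2 fold change was 0.03 ± 0.37 (SE, 95% interval -0.78 to 0.84, adjusted p = 1.00, limma), and the interval spans 0.584-fold to 1.79-fold.

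Slc18a3 (ENSMUSG00000100241, chr14:32462438-32464850, minus strand), the vesicular acetylcholine transporter, shares no exon base with Chat although it lies within it. Normalized counts were 52.5, 31.7 and 58.4 in the cKO and 38.0, 46.1 and 54.0 in the control libraries, with the lowest and the highest value both in the cKO. The log2 fold change was 0.03 ± 0.32 (SE, 95% interval -0.66 to 0.73, adjusted p = 1.00, limma). Per kb of exon, Slc18a3 was above Chat in all 6 libraries, by 2.44-fold to 4.96-fold. Spliced and unspliced Chat reads cannot be told apart from a count per gene.

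Slc5a7 (ENSMUSG00000023945, chr17:54273590-54299034, minus strand), the high-affinity choline transporter, had the highest level per kb of exon of the 3. It measured 176, 132 and 179 normalized counts in the cKO and 264, 156 and 187 in the control libraries. Control library a was the highest and cKO library b the lowest, and the other 4 lay between 156 and 187. The log2 fold change was -0.30 ± 0.22 (SE, 95% interval -0.78 to 0.17, unadjusted p = 0.186, adjusted p = 1.00, limma). It was -0.48 without control library b (unadjusted p = 0.043) and -0.07 without control library a. Per kb of exon, Slc5a7 exceeded Chat 4.34-fold to 9.20-fold and Slc18a3 1.31-fold to 2.96-fold over the 6 libraries.

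**Figure D4:**
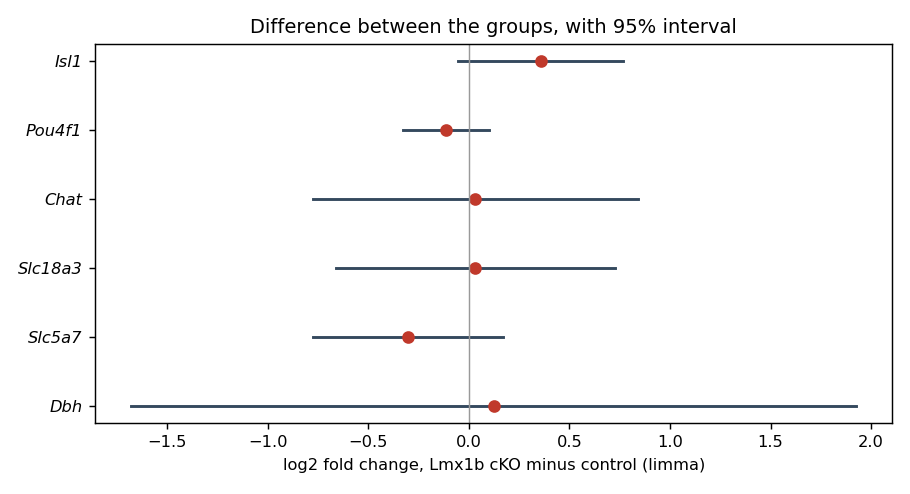
Log2 fold change (x axis, Lmx1b cKO minus control) of the 6 tested genes, with the 95% interval from limma as a line. All 6 intervals include 0, from the narrow interval of Pou4f1 (-0.33 to 0.10) to the wide one of Dbh (-1.68 to 1.93).

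Dbh (ENSMUSG00000000889, chr2:27165233-27183200, plus strand), which converts dopamine to noradrenaline, had the widest range over the libraries of the 6 tested genes. The cKO libraries a, b and c had 17, 32 and 8 reads and the control libraries 62, 16 and 3 reads. The highest and the lowest library were both controls, 16.9-fold apart in normalized count, and the variance within groups was 21.2 times the counting variance. The means of 19.5 ± 12.9 and 24.5 ± 27.0 (SD, n = 3) are lower in the cKO, whereas the fitted log2 fold change was 0.12 ± 0.82 (SE, 95% interval -1.68 to 1.93, adjusted p = 1.00, limma), so its direction is not defined. Single libraries decided the value, which was 1.12 without control library a, -0.80 without control library c and -0.35 without cKO library b.

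The libraries high in Dbh were also high in the noradrenaline transporter Slc6a2, with 66.5, 169 and 5.41 normalized counts in the cKO and 187, 24.0 and 15.1 in the control libraries. Control library a and cKO library b were the highest 2 for Dbh, Slc6a2 and Phox2a. The regulator Tlx3 was also highest in control library a, but cKO library b reached only 23.5% of that level. Over the 6 libraries r of Phox2a and Dbh was 0.71 and rho 0.67 (exact permutation p = 0.131 and 0.161, adjusted p = 0.451 and 0.640). Without cKO libraries a and c, the 2 farthest from the median of Phox2a, r was 0.99. Those 2 libraries had 0 reads of Phox2a but 17 and 8 reads of Dbh, so the higher r leaves out the points that depart from the relation. The cortical factor Tbr1 also peaked in cKO library b (336 normalized counts) and control library a (158), with 9.72 to 108 in the other 4. What these libraries share was not tested.

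**Figure D5:**
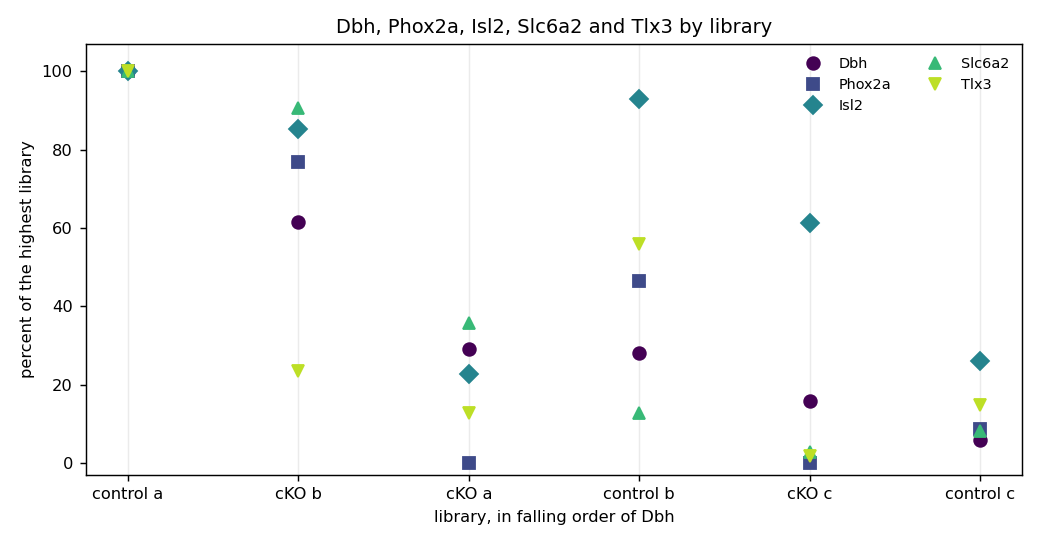
Normalized count of Dbh, Phox2a, Isl2, Slc6a2 and Tlx3 as a percent of the highest library of each gene (y axis), for the 6 libraries in falling order of Dbh (x axis). All 5 genes are at 100% in control library a, while cKO library b holds 90.6% for Slc6a2, 61.6% for Dbh and 23.5% for Tlx3.

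Related genes were taken from 12 lists of 105 genes in all, of which 82 were tested. At an unadjusted p under 0.05, 20 of the 82 (24.4%) were called, and 0 at an adjusted p, against 2.79% and 0.0% of all tested genes. Because the lists were drawn up with earlier results of these data known, nothing is read from that share. Of the 20 calls, 11 held whichever of the 6 libraries was dropped.

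Among 16 tested genes of the motor neuron list, most of them regulators, 1 rose and 2 fell at the unadjusted threshold, with a median log2 fold change of -0.09. The neuronal intermediate filament Prph fell by 0.59 on the log2 scale (unadjusted p = 0.009, limma), from 154 to 222 normalized counts in the control to 114 to 134 in the cKO libraries. The homeobox gene Nkx6-2 fell by 0.45 (unadjusted p = 0.008), and 246 bases of its exons are shared with Inpp5a on the opposite strand. Both held without each library. The LIM homeobox gene Lhx1 was 0.15 higher (unadjusted p = 0.025), but its p was 0.122 without cKO library b. Onecut2 and Ebf2, with Lhx1 the highest of the list in normalized count, had log2 fold changes of 0.04 and -0.21. Mnx1 and Lhx3, regulators of spinal motor neurons, had 3 or fewer reads in every library.

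In the list of red nucleus and ventral glutamatergic neurons, 3 of 11 tested genes rose and 0 fell at the unadjusted threshold (7 had positive and 4 negative values), with a median of 0.07. Sim1, a basic helix-loop-helix factor, had 964, 1051 and 1114 normalized counts in the cKO and 899, 547 and 903 in the control libraries, a log2 fold change of 0.45 (unadjusted p = 0.015, limma) that held without each library. Emx2 (0.21, unadjusted p = 0.048) and the vesicular glutamate transporter Slc17a6 (0.13, unadjusted p = 0.043) were higher as well, with p of up to 0.182 (without cKO library c) and 0.221 (without cKO library a). Emx2 shares 264 exon bases with its antisense gene Emx2os. Foxp2 and Lhx5, the other genes of high normalized count, had values of 0.07 and 0.04. Ebf3 had more reads than were recovered.

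Of 7 tested genes of acetylcholine handling, 0 rose and 2 fell at the unadjusted threshold (1 had a positive and 6 a negative value), with a median of -0.07. The cholinesterase Bche fell by 0.84 on the log2 scale, from 92.0, 94.1 and 117 normalized counts in the control to 49.7, 53.9 and 64.9 in the cKO libraries (unadjusted p = 0.004, adjusted p = 1.00, limma). The vesicular transporter-like gene Slc10a4, which is found in cholinergic and monoaminergic neurons, fell by 0.37 (unadjusted p = 0.004), with 447 to 518 in the cKO and 578 to 685 in the control libraries. Both held without each library. Acetylcholinesterase Ache had a log2 fold change of 0.00 and the choline kinases Chka and Chkb of -0.01 and -0.07, and none of the 3 passed the test.

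In the noradrenergic list 0 of 10 tested genes rose and 2 fell at the unadjusted threshold (5 had positive and 5 negative values), with a median of -0.04. Tlx3 fell by 2.25 on the log2 scale (unadjusted p = 0.031, limma), with 1.08 to 13.7 normalized counts in the cKO and 8.64 to 58.4 in the control libraries, which overlap. Its p was 0.128 without cKO library c. Ddc, which is shared with dopaminergic and serotonergic neurons, fell by 0.24 (unadjusted p = 0.036, and 0.147 without control library c). Tfap2b and Gata3 had values of 0.06 and 0.00.

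Genes of cell types near the dissected tissue are given beside these results, and their part in them was not tested. Of 6 tested serotonergic and rostral hindbrain genes, 4 fell and 0 rose at the unadjusted threshold (2 had positive values), with a median of -0.90. The serotonin transporter Slc6a4 fell by 1.23 and Slc22a3 fell by 1.73 on the log2 scale (unadjusted p = 0.001 for each), and both held without each library. Slc22a3 shares 420 exon bases with Plg on the opposite strand. Tph2 and Fev, which define serotonergic neurons, had log2 fold changes of -0.86 and -0.93 (unadjusted p = 0.012 and 0.023), and their p reached 0.077 without cKO library b and 0.158 without cKO library a. Gata2 and Gbx2, highest in normalized count, had log2 fold changes of 0.04 and 0.51 without passing the test. Hoxb2 and Hoxb3 had 3 or fewer reads in every library. The summed normalized count of this list was 1487 to 1661 in the cKO and 1481 to 1840 in the control libraries. Gata2 and Gbx2 alone averaged 646 and 531 over all libraries, so this sum says little about the 4 genes that fell.

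Cranial sensory ganglion genes, which share Isl1 and Pou4f1, had 0 calls in 5 tested genes (median 0.08). Their summed normalized count was 4927 to 5485 in the cKO and 5199 to 5553 in the control libraries. Ntrk3 alone averaged 4844 over all libraries, so this sum mostly follows that gene. Ntrk3, Prdm12 and Avil, the highest in normalized count, had log2 fold changes of -0.07, 0.27 and -0.59. The habenula list had 0 calls in 6 genes (median 0.05), with Nwd2 at -0.10, Chrna3 at -0.02 and Tac1 at -0.08. The tectum list had 0 calls in 5 genes (median 0.11), with Lhx9 at 0.16, Lhx2 at 0.17 and Pax7 at -0.16. The sums were 2009 to 2613 against 2263 to 2542 for the habenula and 8503 to 9606 against 7220 to 9343 for the tectum. These sums overlapped between the groups.

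The forebrain cholinergic list had 1 call in 3 tested genes (median 0.76). Lhx6 had 179, 297 and 182 normalized counts in the cKO and 123, 104 and 158 in the control libraries, a log2 fold change of 0.76 (unadjusted p = 0.008, limma) that held without each library. Nkx2-1 and Gbx1, at 0.55 and 0.84, did not pass the test. The sum over this list was 494 to 1616 normalized counts over all libraries, highest in cKO library b and lowest in control library b. Skeletal muscle genes had 0 calls in 2 tested genes, Myh3 (-0.27) and Ttn (0.47), summed to 49.7 to 92.8 normalized counts per library with Actc1 below the minimum, and Myod1 and Myog had 3 or fewer reads in every library. All 5 bone and mesenchyme genes had positive values and 1 passed the unadjusted threshold (Col3a1, 1.84, unadjusted p = 0.035, and 0.080 without control library b), with a median of 2.75 and the highest values in cKO libraries c and a, as in Col1a1 (532, 14.8 and 6097 in the cKO and 10.6 to 11.5 in the control libraries) and Col1a2 (594, 123 and 4315 against 165 to 225).

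Among 7 genes of midbrain dopaminergic neurons, 1 rose and 3 fell at the unadjusted threshold (median -0.27, summed normalized counts of 7936 to 8770.3 in the cKO and 8770.4 to 9761 in the control libraries). Aldh1a1, which makes retinoic acid, was 0.92 higher, and the homeobox genes En1 and En2 had log2 fold changes of -0.40 and -0.46, and the 3 calls held when any 1 library was dropped. Pitx3, from whose locus the Cre is expressed, fell by 0.41 (unadjusted p = 0.041, and 0.210 without cKO library a), and Nr4a2 had a value of -0.08.

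The genes whose pattern over the 6 libraries was most like that of each of the 8 were found by Pearson's r of log2 normalized counts among 13657 or 13658 genes whose mean normalized count reached 50. For Isl1 these were Idh3b, Rnf114 and Haus7 (r = 0.995, 0.986 and 0.986), and for Pou4f1 Ghr, Vps16 and Mrpl39 (0.988, 0.983 and 0.983). For Isl2 they were Socs3, Heg1 and Pcdhb3 (0.997, 0.993 and 0.991), and for Phox2a Gng5-ps, Ccndbp1 and Eny2 (0.993, 0.990 and 0.989). For Chat they were Carnmt1, Parn and Fam208a (0.986, 0.982 and 0.978), for Slc18a3 E530001F21Rik, Naa20 and Hhip (0.996, 0.994 and 0.987), and for Slc5a7 Cdc14b, Dhdds and Pid1 (0.985, 0.980 and 0.980). For Dbh they were Gm9794, Riiad1 and Epha4 (0.989, 0.982 and 0.981). With 6 libraries, 70 to 109 genes exceeded r = 0.9 for each of the 8, so these names describe the libraries and carry no test.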

How the data were processed

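The 6 libraries (3 Lmx1b cKO, 3 control) were made from midbrain RNA of pooled E14.5 embryos. The submitters' processing notes name TopHat 1.0.14, Bowtie2 2.1.0, HTSeq 0.6.1p1, DESeq 1.10.1 and the build GRCm38.p4. The paper's methods name DESeq2 for the test. The authors deposited 1 table with the mean coverage signal over all libraries and per group, in read counts divided by a size factor per library. Its 3 lines that name no gene hold 31.8% of the mean counts and were left out. Its ratio, log2 ratio, p-value and adjusted p-value columns hold the authors' own comparison and were not used. The column names list the libraries of each mean by numbers that recur in both genotypes, so a pairing is possible, but a recovered library cannot be matched to one of these numbers.

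The 3 whole read counts behind each group mean were searched for up to a sum of 30000 reads. A single answer in both groups was found for 26348 of 26852 genes. They carry 69.2% of all normalized counts assigned to genes. The other 504 genes had means above what the search covers in full, and were left out. Of 1000 decoy values 7 had an answer, and the recomputed size factors differed by at most 0.125%.

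A minimum mean normalized count of 10 left 16673 genes, which were fitted with limma 3.58.1 (voom weights, R 4.3.3) with the genotype as the only term and Benjamini-Hochberg adjustment over all of them. Single genes were compared by two-sided exact permutation tests. Correlations used log2(normalized count + 1). Per the paper's methods the pooled embryos came from fewer litters than there are libraries, so libraries can share a litter, which ones is not given, and p-values measure the spread between these libraries. Positions, exons and overlaps are from GENCODE vM21 (GRCm38), upstream sequences from RefSeq (GRCm38.p6), and all 8 genes matched by symbol. Named genes are the 8, Lmx1b, genes of the related lists with an unadjusted p under 0.05 or among the 3 highest in mean normalized count, and the 3 genes most like each of the 8. Slc6a2, Tbr1, Gpr151, Gng8, Chrnb4, list genes at 3 or fewer reads in every library, Ebf3 and genes named for an overlap or in sensitivity checks were named after their values were seen. The genes and lists were chosen with earlier results of these data known. Alternatives were minimum means of 50 or none, upper-quartile scaling, limma-trend with pseudocounts of 1 and 10, and each library left out in turn. Scripts ran in Python 3.11.15 (scipy 1.17.1, numpy 2.4.6, numba 0.67.0).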

Additional observations from a re-analysis of the deposited data

How the results depend on the processing

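No paired analysis was possible because the recovered libraries carry no replicate number, although the table's column names use the same numbers in both genotypes. Under another minimum, another scaling or limma-trend, none of those of the 6 tested genes that could be fitted (Isl1, Pou4f1 and Slc5a7 alone with a minimum of 50) had an unadjusted p under 0.05, and no direction changed except for Dbh (-0.013 with limma-trend and a pseudocount of 10). With each library left out in turn, the log2 fold change of Isl1 lay between 0.11 and 0.49, and the others ranged from -0.21 to -0.032 for Pou4f1, from -0.14 to 0.18 for Chat, from -0.12 to 0.29 for Slc18a3, from -0.48 to -0.073 for Slc5a7, from -0.80 to 1.12 for Dbh and from -0.074 to 0.034 for Lmx1b, and the cause of the changes in sign was not tested. The number of these genes with an unadjusted p under 0.05 ranged from 0 to 3: 1 (Isl1) without cKO library a or c, and 3 (Isl1, Pou4f1 and Slc5a7) without control library b. Over all genes this number was 333 to 635 without a library and 972 with no minimum mean, where more genes are tested. Of these 972, 452 were higher and 520 lower in the cKO, and without control library c 127 were higher. At an adjusted p under 0.05, 0 to 4 genes passed without a library. The 4 appeared without control library a and were Gm11702 and the Y-linked Kdm5d, Uty and Ddx3y. In the related lists 16 to 22 genes were called without a library. Depth limits Chat, with at most 27 reads in a library and a spread at counting error. Phox2a and Isl2 have at most 14 reads and Dbh at most 62, and their variance within groups was 6.76, 2.58 and 21.2 times the counting variance.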
